A study of Mus musculus with 12 samples.

Results

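The glucose transporter Slc2a1 and 9 glycolytic enzymes, Gpi1, Aldoa, Tpi1, Gapdh, Pgk1, Pgam1, Eno1, Pkm and Ldha, were followed in single tendon cells with and without tenomodulin. They were chosen by name, as 10 of the 55418 gene symbols in the table of raw counts, and all 10 were counted. Together they took 509179 of 88527742 counts, which is 0.575%. Their summed level was 5722 CPM (counts divided by the total and multiplied by 1000000) in the pooled Tnmd-/- cells and 5771 CPM in the pooled WT cells, while single cells ranged from 239 to 9842 CPM, a 41.2-fold span. At a minimum of 10 counts, Gapdh was the only member found in all 12 cells, Aldoa was found in 11 and Gpi1 in 5.

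Glycolysis splits glucose in the cytosol into pyruvate and gains ATP and NADH on the way, and lactate dehydrogenase then turns pyruvate into lactate so that NAD+ is restored and the route can run without oxygen. Slc2a1, also called GLUT1, carries glucose across the plasma membrane. Tendon is a sparsely vascularised tissue known for a low use of oxygen, and several genes of the route are textbook targets of the hypoxia inducible factors.

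The samples were 6 Tnmd-/- ScxGFP+ cells and 6 WT ScxGFP+ cells, picked singly with a micromanipulator from non-injured Achilles tendons of mice on a C57BL/6 background (C57BL/6J in the study's methods) after 8 h of digestion and amplified by Smart-Seq2, a full-length cDNA protocol without molecular identifiers. Tnmd-/- is a constitutive knockout of tenomodulin, a membrane glycoprotein of mature tendon cells, and ScxGFP, carried by both genotypes, is a green fluorescent reporter of Scx, a transcription factor of the tendon lineage. Because Tnmd is X-linked, WT stood in the study for hemizygous males and for homozygous or heterozygous females, and the mice of the study were skeletally mature, although no age is attached to the single cells. Because no label ties a cell to an animal, a genotype counts as 1 sample here: replicates are lacking, genotypes were not tested against each other, and all intervals are exact ones at 95% that cover counting error only.

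Depth and quality differed between cells. Totals ran from 892713 to 10333351 counts in Tnmd-/- cells and from 4516036 to 13613080 in WT cells. The study marked the cells by RNA degradation: Tnmd-/- cells 9, 10 and 20 and WT cells 4, 5 and 10 were less degraded, and the 6 others more degraded. The more degraded cells had 892713 to 5991316 counts against 6742665 to 13613080 in the less degraded cells, so degradation and depth cannot be told apart here. The mitochondrial share was 51.8% in Tnmd-/- cell 3 and 1.75% to 7.30% elsewhere. Tnmd itself had 8 counts over the knockout cells and 10185 over the WT cells, of which 99.9% lay in WT cell 14, so 5 of the 6 WT cells had fewer than 10 counts of it. Tendon fibroblast markers were counted in every cell, summing to between 1820 CPM in Tnmd-/- cell 3 and 177982 CPM in WT cell 14. Most of the 5714275 counts of that list were Dcn (4414660) and Comp (853047). Of the same list, Tnc was at 0, and Scx, Mkx, Lum, Col3a1, Col1a1 and Pdgfra were at or near 0 in most cells. Col1a1 was at 0 in Tnmd-/- cells 3, 9, 10 and 20 and WT cell 10, and at 2221 CPM in Tnmd-/- cell 7. Egr1 ran from 0 to 4028 CPM. Of the lists for other cell types, the 10 cartilage markers (5 at 0, Col2a1 among them) summed to 0 to 1330 CPM in Tnmd-/- cells and 1.68 to 253 CPM in WT cells. The highest sums of the others were 180.2 CPM for endothelial markers, nearly all Flt1, in Tnmd-/- cell 10, 209 CPM for immune markers, all Itgam with Ptprc at 0, in Tnmd-/- cell 1, 641 CPM for mural markers, all Cspg4, in WT cell 5, 204 CPM for glial markers, all Ncam1, in WT cell 1, and 922 CPM for adipocyte markers, all Fabp4 with Adipoq at 0, in Tnmd-/- cell 3. Skeletal muscle markers summed to at most 22.6 CPM and the 6 red blood cell markers were at 0 in all 12 cells.

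Sequence upstream of the members was read from the RefSeq promoter table (build GRCm38.p6) for the letters ACGTG or their reverse complement CACGT. They are 1 form of the core of the hypoxia response element, which is A or G followed by CGTG. The form GCGTG was not searched for, so a window without a match can still hold it, as the Gapdh window printed below does. A CACGTG palindrome, which is also an E-box, holds both searched runs and counts as 2 overlapping matches. At least 1 window of 250 bases before a listed start held the letters in 6 of 10 members, Slc2a1, Aldoa, Pgk1, Pgam1, Pkm and Ldha, against 19.5% of 20595 genes of the count table that have such a window. Counted by window it was 7 of 16 windows of the members, since some have several listed starts, against 16.6% of 32851. The 2 Aldoa windows with a match overlap and hold the same site. No share was taken over windows of like GC content. Windows of 4 members with many, few or no matches are printed here 5′ to 3′, each ending at the base before the start, with the matching letters in capitals. The window of Ldha (chr7:46845554-46845803, plus strand) holds 5 matches, that of Pgk1 (chrX:106186850-106187099, plus strand) holds 2, that of Slc2a1 (chr4:119108495-119108744, plus strand) holds 1 and that of Gapdh (chr6:125165774-125166023, minus strand) holds none.
Ldha: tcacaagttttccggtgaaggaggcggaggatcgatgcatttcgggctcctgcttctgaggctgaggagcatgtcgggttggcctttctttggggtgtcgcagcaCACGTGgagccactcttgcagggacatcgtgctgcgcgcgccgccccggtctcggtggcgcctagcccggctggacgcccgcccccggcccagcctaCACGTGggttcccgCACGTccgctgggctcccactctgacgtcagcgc
Pgk1: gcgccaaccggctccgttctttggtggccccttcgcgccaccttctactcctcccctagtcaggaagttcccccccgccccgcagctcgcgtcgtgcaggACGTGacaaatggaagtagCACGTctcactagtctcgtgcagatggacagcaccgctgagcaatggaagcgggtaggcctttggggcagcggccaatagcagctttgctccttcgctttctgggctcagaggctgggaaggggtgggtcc
Slc2a1: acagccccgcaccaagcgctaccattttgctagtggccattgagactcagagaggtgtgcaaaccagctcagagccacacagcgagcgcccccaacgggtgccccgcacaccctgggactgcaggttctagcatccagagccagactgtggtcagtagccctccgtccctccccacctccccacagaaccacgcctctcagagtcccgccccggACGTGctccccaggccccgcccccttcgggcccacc
Gapdh: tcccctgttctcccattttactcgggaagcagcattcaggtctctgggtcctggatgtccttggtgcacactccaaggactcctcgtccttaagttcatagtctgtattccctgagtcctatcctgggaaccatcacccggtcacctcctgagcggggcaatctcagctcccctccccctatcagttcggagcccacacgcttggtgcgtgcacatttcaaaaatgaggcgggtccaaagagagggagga
The matches of Ldha begin 145, 144, 48, 47 and 34 bases before the start, those of Pgk1 150 and 131 bases before it, and that of Slc2a1 36 bases before it. A match is a run of letters and not a measured binding site, and binding and chromatin were not analysed here.

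Single members were mostly high in the less degraded cells and spread over the whole scale in the more degraded ones. Of the 60 values of the less degraded cells (10 members in 6 cells), 49 were at 100 CPM or more, 5 lay between 10 and 100 CPM and 6 were under 10 CPM. In the more degraded cells these figures were 19, 12 and 29. In counts, 93 of all 120 values reached 10 counts, 24 were between 1 and 9 counts and 3 were 0. The less degraded cells held at least 10 counts in 55 of 60 values and the more degraded cells in 38 of 60. By genotype the figures were 44 of 60 in Tnmd-/- cells and 49 of 60 in WT cells, and after every cell was thinned to 892713 counts they were 42 and 43.

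**Figure D1:**
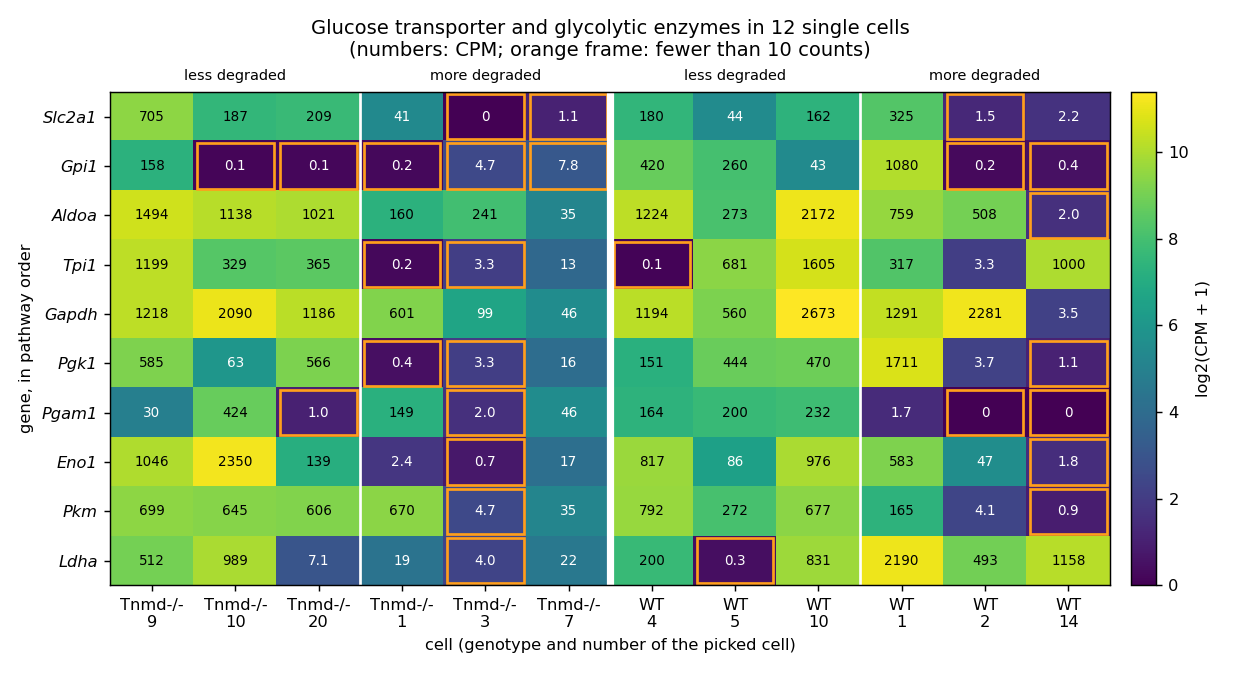
Heat map of the 10 members (rows, in pathway order) in the 12 cells (columns, by genotype and degradation level). Colour is log2(CPM + 1), the printed numbers are CPM, and orange frames mark values under 10 counts; these number 27 of 120, and 8 of them are in Tnmd-/- cell 3.

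The 5 gaps among the less degraded cells lay in 4 cells, 2 of them in Tnmd-/- cell 20. Gpi1 had 1 count in Tnmd-/- cell 10 and 1 count in Tnmd-/- cell 20, Pgam1 had 7 counts in Tnmd-/- cell 20, Tpi1 had 1 count in WT cell 4, and Ldha had 4 counts in WT cell 5. These 4 cells had between 27647 and 84655 counts over the members. WT cell 14, the cell with nearly all Tnmd counts, was the most uneven: Ldha and Tpi1 made up 99.4% of its member counts, and no other member had more than 16 counts. Tnmd-/- cell 7, the shallowest library, was far more even, with between 1 and 41 counts of every member and 38.5% of them in its leading pair of genes. The smallest share of a leading pair was 35.5%, in Tnmd-/- cell 9.

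Detection of the members was read against all genes. Of the 9768 genes with at least 20 counts over the 12 cells, 2.18% reached 10 counts in every cell, and of the 977 genes at least as abundant as Pgam1 (148 CPM over all cells) 21.2% did. The median of those 977 genes was 9 cells and the median of the 10 members was 9.5 cells. This abundance limit was chosen after the values were seen.

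The summed level of the route set the cells apart more than the genotypes did. In the Tnmd-/- cells the sum of the 10 members was lowest at 239 CPM, 2872 CPM at the median and 8215 CPM at the highest. In the WT cells it was 2170 CPM, 4242 CPM and 9842 CPM. The ranges overlapped, with Tnmd-/- cells 3 (362 CPM) and 7 (239 CPM) below every other cell.

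**Figure D2:**
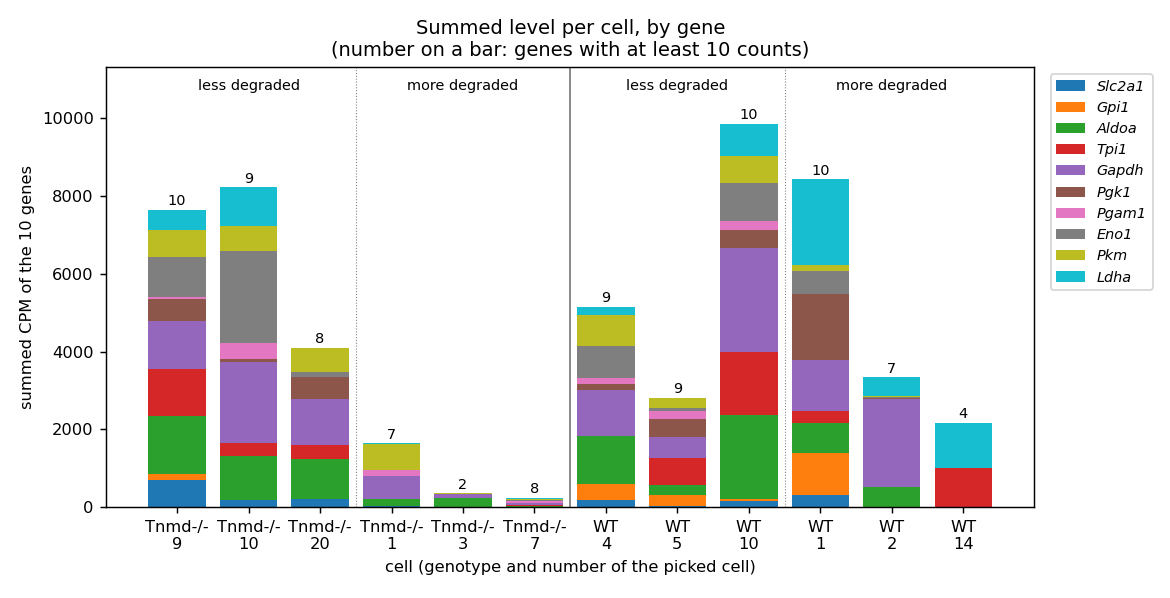
Stacked bars of the CPM of the 10 members in each of the 12 cells, in the same order of cells, starting at 0; numbers on the bars count the members with at least 10 counts. The 3 less degraded Tnmd-/- cells reach 4100 to 8215 CPM and the 3 more degraded ones 239 to 1643 CPM, while WT cells of both levels reach between 2170 and 9842 CPM.

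Within the less degraded cells the sum was 4100 to 8215 CPM in 3 Tnmd-/- cells and 2819 to 9842 CPM in 3 WT cells. Within the more degraded cells it was 239 to 1643 CPM in 3 Tnmd-/- cells and 2170 to 8424 CPM in 3 WT cells, which did not overlap. Other common genes were not all low in these 2 cells. The elongation factor Eef1a1 was at 296 and 279 CPM in Tnmd-/- cells 3 and 7 and between 4549 and 14206 CPM elsewhere, and the ribosomal gene Rplp0 was at 101 and 115 CPM there and between 3447 and 9860 CPM elsewhere. Ppia, which encodes cyclophilin A, was at 3365 CPM in cell 3, the highest of the 12 cells, and at 15.7 CPM in cell 7, and Ywhaz, which encodes a 14-3-3 protein, was at 469 and 531 CPM, inside the range of the other cells. Across the 12 cells the sum went with library size (Spearman rho 0.75) and against the mitochondrial share (rho -0.79), as a description over cells that also share their degradation level. The 2 highest Tnmd-/- cells, 9 and 10, were also those with 1330 and 1271 CPM of cartilage markers. These were mostly Acan (849 and 1042 CPM), with Sox9 (482 CPM) in cell 9 and Hapln1 (187 CPM) in cell 10, while Col2a1 was at 0. The 2 cells with the highest sums of all, WT cells 10 and 1, had 105 and 253 CPM of cartilage markers. The part of cartilage markers, depth, degradation or the mitochondrial share in the sum was not tested.

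As a log2 ratio of Tnmd-/- over WT, the pooled sum differed by -0.01 (-0.02 to -0.00), by 0.20 (0.19 to 0.21) in the less degraded cells and by -2.02 (-2.05 to -1.99) in the more degraded cells. With each cell weighted equally the ratio was -0.52. These intervals are narrow because reads are many, and the spread between cells was far wider.

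Among the 10 members, 1 was at least 2-fold higher in the Tnmd-/- pool (Slc2a1) and 1 at least 2-fold lower (Gpi1). Over all 9768 genes tested in the same way, with 1 CPM added to both pools, 35.5% were at least 2-fold higher and 34.9% at least 2-fold lower. Among the 977 genes at least as abundant as the least counted member the shares were 17% and 20.4%. The median log2 ratio was -0.09 over the members and 0.06 over all genes. With 1 cell left out at a time, between 0 and 2 members were at least 2-fold higher and between 1 and 3 at least 2-fold lower: none was higher without Tnmd-/- cell 9 or WT cell 5, and 3 were lower without Tnmd-/- cell 9 or 10.

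In the less degraded cells 2 members were at least 2-fold higher (Slc2a1 and Eno1) and 1 lower (Gpi1), against 34.8% and 38.2% of 7958 genes, and the median was 0.060 over the members and -0.045 over all genes. In the more degraded cells 2 were higher (Pgam1 and Pkm) and the 8 others lower, against 45.3% and 41.1% of 6027 genes, and the median was -3.91 over the members and 0.29 over all genes. On the Tnmd-/- side that second comparison rests on cells 1, 3 and 7, and mostly on cell 1. Cell 1 gave 5310493 of the 7707981 counts of that Tnmd-/- pool and 8727 of its 9485 member counts. On the WT side, WT cell 1 gave 50469 of the 76391 member counts. It held 6471 of 6474 Gpi1, 10252 of 10275 Pgk1, 1948 of 1965 Slc2a1 and 3491 of 3728 Eno1 counts. The largest WT share of Tpi1 was in WT cell 14 (4514 of 6428) and that of Gapdh in WT cell 2 (11006 of 18757). Tnmd-/- cells 3 and 7 are the low cells named above. Without those 2 cells the ratio of the pooled sum over all remaining cells was 0.084, and 2 members (Slc2a1 and Eno1) were at least 2-fold higher and 1 lower.

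**Figure D3:**
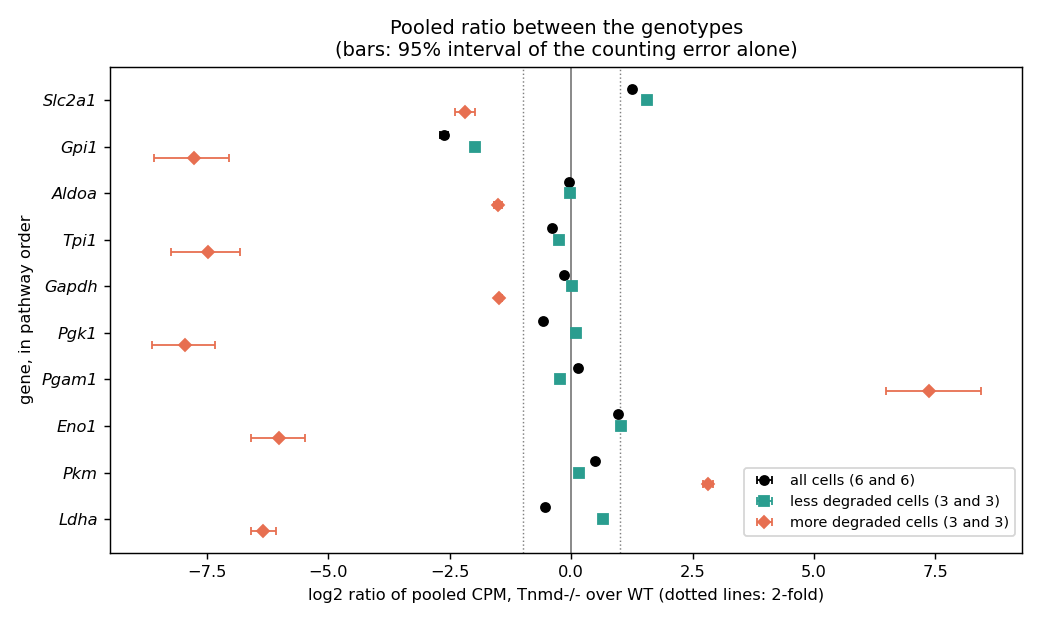
Log2 ratio of pooled CPM, Tnmd-/- over WT, for each member (rows), with all cells, the less degraded and the more degraded cells as separate symbols. Horizontal bars are 95% counting intervals and dotted lines mark 2-fold; in the less degraded cells 7 of the 10 members lie between the lines, and in the more degraded cells none does.

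Uptake of glucose came first in the route. Slc2a1 (chromosome 4, 119108711 to 119137983, plus strand, GRCm38) had 0 to 705 CPM in the Tnmd-/- cells, median 114 CPM, and 1.45 to 325 CPM in the WT cells, median 103 CPM. Tnmd-/- cell 9 alone supplied 67.2% of the Tnmd-/- counts. The 0 of Tnmd-/- cell 3 allows a level of up to 1.99 CPM by counting error alone. In the pools the transporter was at 309 CPM (302.9 to 315) against 129.9 CPM (127 to 133), a log2 ratio of 1.25 (1.20 to 1.29).

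In the less degraded cells Slc2a1 was at 187, 209 and 705 CPM in the 3 Tnmd-/- cells and at 43.7, 162 and 179.7 CPM in the 3 WT cells, so the groups did not overlap there. It was the only member of which this held at that level, and every Tnmd-/- cell lay above every WT cell for 3% of 7958 genes and below for 3.27%. The direction turned in the more degraded cells, with a log2 ratio of -2.18 (-2.39 to -1.98). WT cell 1 alone, at 325 CPM, held 1948 of the 1965 WT counts there. WT cells 2 and 14 were at 1.45 and 2.21 CPM, and Tnmd-/- cells 1, 3 and 7 at 40.9, 0 and 1.12 CPM. The ratio over all cells was 0.14 without Tnmd-/- cell 9 and 0.99 without WT cell 5, and in both cases no longer 2-fold. It was also under 2-fold at 0.68 with each cell weighted equally, 0.64 after thinning and 0.99 with TMM factors, an alternative scaling of the totals.

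The other hexose transporters were nearly absent. Of 9 further members of the family, 7 had no count in any cell, among them Slc2a4, the insulin-responsive transporter of muscle and fat. Slc2a10 with 2084 counts and Slc2a3 with 88 counts were at least 2-fold higher in the Tnmd-/- pool, and at 309 CPM and 13.1 CPM they were seen in Tnmd-/- cell 20, with 0.0832 CPM of Slc2a10 in WT cell 5 as the sole other value.

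Of the kinases that trap and commit glucose, the hexokinases were sparse and 1 phosphofructokinase was not. Of the hexokinases listed, Hk2 had 1945 counts and a log2 ratio of -1.01, Hk1 had 282 counts and 3.11, and Hk3 and Hkdc1 had none. Phosphofructokinase, which makes the committed step, was counted as the platelet type Pfkp alone, with 21298 counts. The liver type Pfkl and the muscle type Pfkm had none in 88527742 counts, which by counting error alone allows up to 0.0339 CPM. Pfkp was at most 1.16 CPM in Tnmd-/- cells 1, 3, 9 and 10, at 114 CPM in cell 7 and at 752 CPM in cell 20. In WT cells it was at 0.221 CPM in cell 14 and between 65.3 and 903 CPM in the 5 others, for a log2 ratio of -1.02. Of the regulators, Pfkfb2 had 87 counts, 82 of them in Tnmd-/- cell 7.

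Between uptake and the split of the sugar stand Gpi1 and Aldoa. Gpi1, glucose-6-phosphate isomerase (chromosome 7, 34201330 to 34230336, minus strand), was the most uneven member between genotypes. It had 0.0970 to 158 CPM in the Tnmd-/- cells, median 2.42 CPM, and 0.207 to 1080.1 CPM in the WT cells, median 151 CPM. Only 1 Tnmd-/- cell, cell 9, reached 10 counts, and it held 99.0% of the counts of that genotype, while 4 WT cells did (1, 4, 5 and 10).

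In the pools Gpi1 stood at 47.0 CPM (44.7 to 49.3) in Tnmd-/- and 289 CPM (284 to 293) in WT, a log2 ratio of -2.62 (-2.69 to -2.55). The ratio was -1.98 in the less degraded cells, -7.76 in the more degraded cells and -8.71 without Tnmd-/- cell 9. The ranges overlapped in each case. WT cells 2 and 14, both more degraded, had 1 and 2 counts, and in the less degraded cells the 158 CPM of Tnmd-/- cell 9 lay above the 42.5 CPM of the lowest WT cell. The files do not say whether counting used strand, and 11.5% of the exon bases of Gpi1 overlap Gm26762 on the other strand, so reads there may belong to either gene.

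Aldoa, the aldolase that splits fructose bisphosphate (chromosome 7, 126795234 to 126809108, minus strand, in 2 neighbouring gene models whose counts share a row), was found in 11 cells. It had 34.7 to 1494 CPM in the Tnmd-/- cells, median 631 CPM, and 1.99 to 2172 CPM in the WT cells, median 633 CPM. The pools stood at 1006 and 1032 CPM, a log2 ratio of -0.04 (-0.06 to -0.02). Leaving out WT cell 10 gave 0.65, and leaving out Tnmd-/- cell 9 gave -0.36. In WT cell 14 it had 9 counts, the sole value under 10 counts among the 12 cells. Its brain isoenzyme Aldoc had no count in any cell.

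Tpi1, triosephosphate isomerase (chromosome 6, 124810586 to 124814296, minus strand), interconverts the triose phosphates that aldolase makes. It had 0.188 to 1199 CPM in the Tnmd-/- cells, median 171 CPM, and 0.0802 to 1605 CPM in the WT cells, median 499 CPM. It was at 1605 CPM in WT cell 10 and at 1 count in WT cell 4, although both cells were less degraded and had totals of 13613080 and 12473644 counts. The pooled log2 ratio was -0.39 (-0.42 to -0.37), 0.50 without WT cell 10 and -1.53, past 2-fold lower, without Tnmd-/- cell 9.

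Gapdh, glyceraldehyde-3-phosphate dehydrogenase (chromosome 6, 125161715 to 125166467, minus strand), makes the NADH of the route and is widely used as a reference gene. It had 45.9 to 2090 CPM in the Tnmd-/- cells, median 894 CPM, and 3.54 to 2673 CPM in the WT cells, median 1243 CPM. The lowest value, 16 counts, was in WT cell 14, the cell with the 177982 CPM of tendon markers. The pooled log2 ratio was -0.15 (-0.16 to -0.13), 0.35 without WT cell 10 and -0.57 without Tnmd-/- cell 10.

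As a reference, Gapdh varied within the range of other genes of the kind. Its log2(CPM + 1) had a standard deviation of 2.77 over the 12 cells. Of the 8 other reference genes with at least 20 counts, 5 varied less, from 1.07 for Ywhaz to 2.70 for B2m, and 3 more, at 2.80 for Sdha, 3.03 for Ppia and 3.05 for Hprt. In the less degraded cells the standard deviation of Gapdh was 0.78, with 4 of the 8 below it, from 0.47 for Rplp0 to 0.73 for Actb, and 4 above it, up to 3.63 for Sdha. None of the 8 was 2-fold apart between the pools.

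Gapdh has many processed copies in the mouse genome, and some took reads of their own. Of 180 annotated copies with at least 90% identity over at least 200 bases, 68 were counted, with 8403 counts in all, which is 6.43% of the counts of Gapdh and copies together. Nearly all counts of Gm12182, 2786 of 2789, came from Tnmd-/- cell 9, and 1314 of the 1374 counts of Gm5345 came from WT cell 5. Gm6981 had 1476 counts in Tnmd-/- cell 10, 738 in Tnmd-/- cell 1 and 401 in WT cell 10. Reads that fit Gapdh and a copy equally were not counted, and their number is not known here, so this share sets no bound on the error in the level of Gapdh. For the other members the copies took at most 0.643% (Pgam1, with Pgam1-ps2 at 85 counts).

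**Figure D4:**
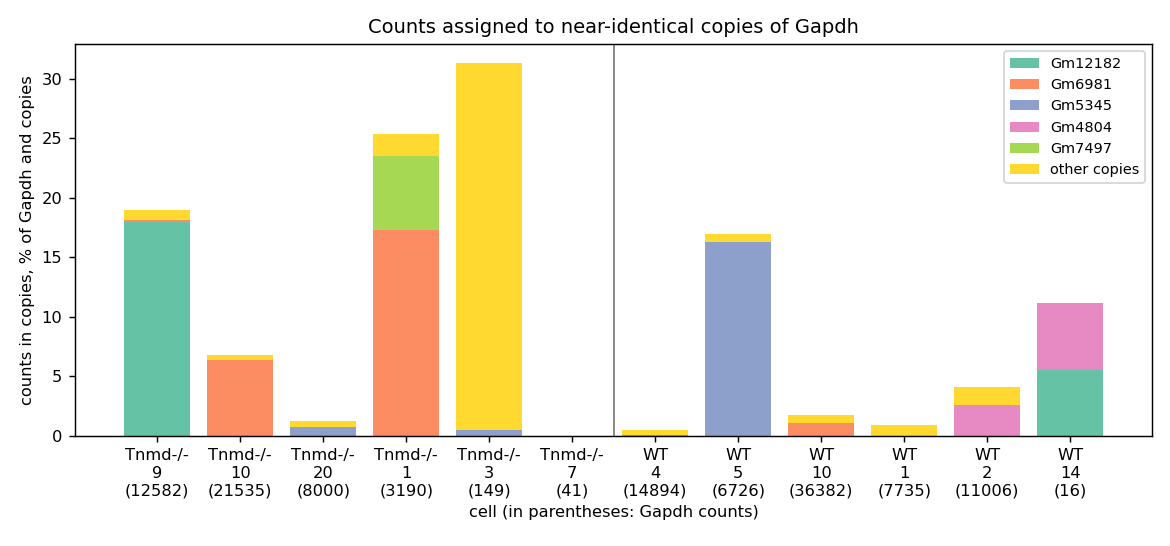
Counts assigned to near-identical copies of Gapdh as a percent of the counts of Gapdh and copies together, stacked by copy, in each of the 12 cells; Gapdh counts are in parentheses. The share is 18.9% in Tnmd-/- cell 9, nearly all from Gm12182, 25.3% in Tnmd-/- cell 1 and 16.9% in WT cell 5, and the 31.3% of Tnmd-/- cell 3 rests on 68 counts.

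Pgk1, phosphoglycerate kinase, makes the first ATP of the route and lies on the X chromosome (106187100 to 106203699, plus strand). It had 0.377 to 585 CPM in the Tnmd-/- cells, median 39.2 CPM, and 1.11 to 1711 CPM in the WT cells, median 297 CPM. WT cell 1 alone gave 42.9% of its genotype's counts. The pooled log2 ratio was -0.57 (-0.61 to -0.54), 0.06 without WT cell 1 and 0.10 in the less degraded cells. It was past 2-fold lower at -1.30 without Tnmd-/- cell 9 and at -1.17 with each cell weighted equally.

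Pgam1, phosphoglycerate mutase (chromosome 19, 41911923 to 41918660, plus strand), was found in 8 cells. It had 1.04 to 424 CPM in the Tnmd-/- cells, median 37.7 CPM, and 0 to 232 CPM in the WT cells, median 82.9 CPM. The 0 of WT cells 2 and 14 allows levels of up to 0.622 and 0.664 CPM by counting error alone. Tnmd-/- cell 10 held 79.2% of the Tnmd-/- counts, and the pooled log2 ratio of 0.14 (0.09 to 0.19) became -1.63 without it.

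In the more degraded cells every Tnmd-/- cell lay above every WT cell for Pgam1, at 1.99, 45.9 and 149 CPM against 0, 0 and 1.67 CPM, and below for Ldha, while this held for 3.82% and 2.04% of 6027 genes. At these levels the lowest Tnmd-/- value of Pgam1 rests on 3 counts and the highest WT value on 10. The muscle isoenzyme Pgam2 had no count in any cell.

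Eno1, the enolase that makes phosphoenolpyruvate (chromosome 4, 150236721 to 150248879, plus strand), leaned on a pair of Tnmd-/- cells. It had 0.665 to 2350.0 CPM in the Tnmd-/- cells, median 78.0 CPM, and 1.77 to 976 CPM in the WT cells, median 335 CPM. Cell 10 held 67.3% of the Tnmd-/- counts and cell 9 most of the remainder. The pooled log2 ratio of 0.96 (0.93 to 0.98) became -0.15 without Tnmd-/- cell 10 and 1.45 without WT cell 10, and the medians stand in the opposite order to the pools. The neuronal Eno2 and the muscle Eno3 had no count in any cell.

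Pkm, pyruvate kinase (chromosome 9, 59656368 to 59679375, plus strand), makes the second ATP and pyruvate. It had 4.65 to 699 CPM in the Tnmd-/- cells, median 626 CPM, and 0.886 to 792 CPM in the WT cells, median 219 CPM. In the 6 less degraded cells it lay between 272 and 792 CPM, with the smallest standard deviation of log2(CPM + 1) of the members, 0.56. The pooled log2 ratio was 0.49 (0.46 to 0.52), and it stayed above 0 at 0.16 in the less degraded cells and 2.82 in the more degraded cells. In the more degraded cells, Tnmd-/- cell 1 alone held 3560 of the 3598 Tnmd-/- counts of Pkm. Some 15.3% of its exon bases overlap Gm49759 on the same strand, and the liver and red cell gene Pklr had no count.

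Ldha, the lactate dehydrogenase subunit that prevails in muscle and hypoxic tissue (chromosome 7, 46841475 to 46855627, plus strand), closed the route. It had 3.99 to 989 CPM in the Tnmd-/- cells, median 20.9 CPM, and 0.333 to 2190.5 CPM in the WT cells, median 662 CPM. In the more degraded cells the 3 Tnmd-/- values of 3.99, 19.4 and 22.4 CPM lay below the 3 WT values of 493, 1158 and 2190.5 CPM. In the less degraded cells the order was opposite in the pools, at 567 and 363 CPM, with overlapping ranges. The pooled log2 ratio was -0.53 (-0.56 to -0.51) over all cells, 0.65 in the less degraded cells and -6.34 in the more degraded cells. Tnmd-/- cell 10 held 65.1% of the Tnmd-/- counts, and the ratio was -1.55, past 2-fold lower, without it and -1.65 with each cell weighted equally.

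The heart subunit Ldhb was almost absent beside it, with 2 counts in WT cell 1 and none elsewhere. Of 11 isoenzymes of other tissues, 10 had no count in any cell and Ldhb had these 2. Among the isoenzymes listed, the member held all or nearly all counts at its step.

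**Figure D5:**
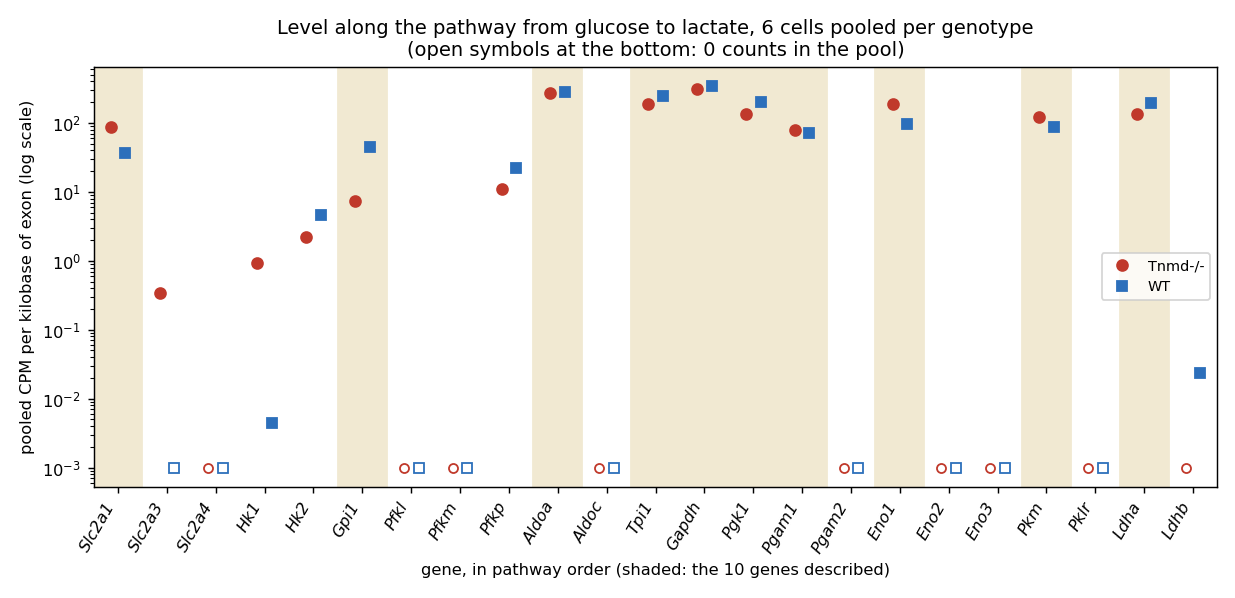
Pooled CPM per kilobase of exon (log axis) along the route from glucose to lactate, 6 cells pooled per genotype, with the 10 members shaded; open symbols at the bottom edge are genes with 0 counts. The members lie between 7.28 and 348 CPM per kilobase in either genotype, Pfkp lies within that range, Hk1 and Hk2 lie lower, and the isoenzymes of other tissues are at or near 0.

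Levels per length were in the order Gapdh (334 CPM per kilobase of exon over all cells), Aldoa (275), Tpi1 (225), Pgk1 (173), Ldha (171), Eno1 (135), Pkm (101.5), Pgam1 (74.8), Slc2a1 (57.3) and Gpi1 (29.9). Every neighbour in this order overlapped with the next over the 12 cells, since no member's lowest cell was above 3.54 CPM and no member's highest cell was below 424 CPM. With each cell weighted equally only Pgk1 and Ldha changed places. In the less degraded cells the standard deviations of log2(CPM + 1) of the members rose without a break from 0.56 (Pkm), 0.78 (Gapdh) and 1.02 (Aldoa) through 1.26 (Slc2a1), 1.30 (Pgk1), 1.85 (Eno1) and 2.86 (Pgam1) to 3.88 (Gpi1), 3.91 (Tpi1) and 3.97 (Ldha).

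Over all cells the levels of most pairs of members were positively but often weakly correlated, and fewer pairs were so within the less degraded cells. Over the 45 pairs the Spearman rho across 12 cells was 0.38 at the median and ran from -0.11 to 0.89, with 14 pairs above 0.5; Aldoa and Eno1 were the closest pair. Within the 6 less degraded cells the median was 0.20 and 14 pairs were below 0, against 2 pairs over the 12 cells. Among 2400 other genes the median over 12 cells was 0.06. These are descriptions over cells that share library size and degradation level, and in the same cells the sum of the members went with both.

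Beyond the enzymes of the straight route, 12 lists of connected genes held 107 genes, of which 42 had no count in any cell and 59 had at least 20 counts. Of those 59, 25 were at least 2-fold higher and 23 at least 2-fold lower in the Tnmd-/- pool, beside the shares over all genes given above. In the pentose phosphate pathway, the branch that makes NADPH and ribose, Taldo1 (log2 ratio -2.69) and Rpe (-4.71) were lower and H6pd (3.32) higher, of 6 genes with enough counts. For lactate transport Emb (1.05), Slc16a1 (1.91) and Slc16a7 (3.83) were higher and Bsg (-1.05) lower. The lactate transporter Slc16a1 was at 888 CPM in Tnmd-/- cell 20, 412 CPM in WT cell 1 and 39.4 CPM in Tnmd-/- cell 1. It was at most 3.36 CPM in the others, and the hypoxia-inducible exporter Slc16a3 had no count.

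For the entry of pyruvate into mitochondria and its oxidation, 7 of 11 genes were higher, with Pdhb (1.91), Dld (1.83) and Mpc1 (2.37). The 4 others were lower, with Pdha1 (-1.84), Mpc2 (-6.33) and Pdp1 (-5.73). Over all 9768 genes, 35.5% were at least 2-fold higher and 34.9% at least 2-fold lower. Mpc1 and Mpc2, which form the pyruvate carrier together, were both above 10 CPM in 1 cell only, WT cell 10. In gluconeogenesis G6pc3 (-6.04) and Pcx (-4.48) were lower and Pck2 (3.32) higher. In glycogen metabolism Gys1 (1.14), Gyg (6.37) and Pygm (4.56) were higher and Gbe1 (-2.03) and Pgm2 (-4.12) lower. Among the NADH shuttles Got2 (1.60) and Gpd1 (2.86) were higher and Got1 (-4.04) and Gpd2 (-2.61) lower. Most of these came from 1 or 2 cells each, as with the 337 CPM of Pck2 in Tnmd-/- cell 9 and the 347 CPM of G6pc3 in WT cell 5.

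The hypoxia inducible factor pathway, the known regulator of the route, gave 2 genes higher and 4 lower of 6 with enough counts. Hif1a, its oxygen-regulated subunit, had a log2 ratio of 1.76: it was at 225 to 536 CPM in 4 Tnmd-/- cells and at 2.00 and 3.36 CPM in cells 3 and 7, and at 0.499 to 354 CPM in the WT cells. Hif1an (2.25) was also higher, and the prolyl hydroxylases Egln3 (-5.75) and Egln1 (-4.67), the alternative oxygen-regulated subunit Epas1 (-4.36) and the partner subunit Arnt (-2.74) were lower. Single cells carried most of these: Hif1an was counted in Tnmd-/- cell 20 alone, and 99.8% of the Egln3 counts lay in WT cell 10, 90.6% of those of Arnt in WT cell 10 and 99.4% of those of Epas1 in WT cell 4. Egln1 reached 10 counts in 2 cells. Of 10 hypoxia targets outside glycolysis, Kdm3a (1.19) and Vegfa (4.74) were higher, 4 including Ndrg1 (-1.25), Higd1a (-1.44) and Adm (-5.16) were lower, and 4 lay between. Both lists stand beside 35.5% of all 9768 genes at least 2-fold higher and 34.9% at least 2-fold lower.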

How the data were processed

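Smart-Seq2 libraries of 12 single ScxGFP+ cells, 6 per genotype, were analysed from the deposited table. Per the paper's methods and the submitters' notes, the authors used BBDuk for trimming and BioBloom Tools to discard reads not exclusive to mouse, then aligned with STAR 2.5.1b to GRCm38 (Ensembl 96 annotation) and counted uniquely mapping exonic reads with featureCounts of Subread 2.0.0. The values the authors deposited are raw counts per gene and cell, with no molecular identifiers and no correction for degradation, and a length per gene. Whether counting used strand is not given in the sources used here.

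Counts were divided by the total of the cell, or of the 6 pooled cells of a genotype, and multiplied by 1000000 (CPM). Each genotype was 1 sample, so no test was made. Ratios are log2 of pooled Tnmd-/- over WT CPM. Calls of 2-fold used 1 CPM added and genes with at least 20 counts. Pooled CPM carry exact Poisson intervals, ratios exact Clopper-Pearson intervals at 95%, and for the members the counting error was at most 4.86% of a pooled level. A count of 0 allows up to 3 counts by counting error alone, a bound that does not cover transcripts missed before sequencing. Totals per cell were 892713 to 13613080.

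Positions came from GENCODE M21 on GRCm38, which held 100% of the 55418 symbols. Copies were found with BLAST+ 2.17.0 by aligning member transcripts to all others. Degradation levels were taken from the annotation of the study's heat map and used as a split. The members and lists were chosen with earlier results of these data known. All 10 members are named. From each of 12 pathway lists and the reference genes, at most 3 genes past 2-fold per direction, those with the most counts, or else the 2 most counted, are named, with tissue isoenzymes, the 5 genes most like the summed members, copies, and Tnmd and Scx. Of the listed genes, 2 are not reported here and are left out of the list counts. Other genes were named after their values were seen: the markers that stood out, Slc16a3, Slc2a4, Pfkl, Pfkm, Arnt and genes at 0 counts.

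Alternatives were equal weights, size factors of DESeq2 1.42.0, TMM factors of edgeR 4.0.16, totals without the 37 mitochondrial and 50 most counted genes, each degradation level, each cell left out, thinning to the smallest total, 0 or 5 CPM added, and a minimum of 100 counts or none. Leaving out Tnmd-/- cells 3 and 7 was added after seeing the data. R 4.3.3, Python 3.11.15, scipy 1.17.1, pandas 2.3.3 and numpy 2.4.6 were used, and the scripts were tested on simulated counts.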

Additional observations from a re-analysis of the deposited data

Results flagged for a closer look

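In 5 of 22 groups of 6 cells (10 members and their sum, in each genotype), 1 cell stood apart from the 5 others by a gap larger than Dixon's critical value at 95%, which chance gives in about 1 of 20 groups of normal and independent values. CPM of these cells spanned up to 20022-fold for a member, the sum holds the members and no label ties cells to animals, so that rate does not apply here and the gaps are given as a description. In the Tnmd-/- cells, cell 9 was high for Slc2a1 (705 CPM, next 209 CPM), Gpi1 (158 CPM, next 7.84 CPM) and Tpi1 (1199 CPM, next 365 CPM), and cell 10 was high for Pgam1 (424 CPM, next 149 CPM). In the WT cells, cell 1 was high for Pgk1 (1711 CPM, next 470.0 CPM). All 5 were high ends, and the 3 genes of Tnmd-/- cell 9 come from the deepest library of that genotype.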

How the results depend on the processing

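Under other settings the pooled log2 ratio of the summed members, -0.01 as reported, was -0.52 with equal weights, -0.51 after thinning, -0.27 with TMM factors, -0.037 with DESeq2 size factors, -0.041 without mitochondrial and top genes in the totals, 0.20 in the less degraded and -2.02 in the more degraded cells, and 0.084 without Tnmd-/- cells 3 and 7. The median over the members, -0.09 as reported, was -0.44, -0.43, -0.35, -0.12 (DESeq2), -0.12 (totals without those genes), 0.060, -3.91 and -0.00097 in the same order. TMM factors shifted every ratio by -0.26 on the log2 scale. With equal weights or thinning 0 members were at least 2-fold higher and 3 lower, with TMM 0 were higher, in the less degraded cells 2 were higher, in the more degraded cells 2 were higher and 8 lower, and without Tnmd-/- cells 3 and 7, chosen after seeing the data, 2 were higher. Slc2a1 turned to -2.18 in the more degraded cells, where WT cell 1 held 1948 of the 1965 WT counts, and the cause was not tested. Pkm and Gpi1 kept their sign in all 20 alternatives, and the 8 other members did not.

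With 1 cell left out at a time the sum ran from -0.30 (without Tnmd-/- cell 10) to 0.39 (without WT cell 10), the median from -0.35 (without WT cell 5) to 0.49 (without WT cell 10), members higher from 0 to 2, members lower from 1 to 3, and members with at least 10 counts in all remaining cells from 1 to 2 (without WT cell 14). At a minimum of 1 count 8 members were found in all cells, and after thinning 0 at 10 counts. CPM added and the minimum of counts changed none of these counts of members. No paired analysis was possible because the cell numbers 1 and 10, shared by both genotypes, only name picked cells and no test was made. Depth limits the low values: 1 count is worth between 0.0735 and 1.12 CPM in a cell.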

Other observations

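The genes whose level followed the summed members most closely over the 12 cells, among 568 other genes that reached 10 counts in 10 or more cells, were not metabolic ones. They were Fn1, fibronectin (Spearman rho 0.88, 29.2 to 22018 CPM), Serpine2, a secreted protease inhibitor (0.87, 22.6 to 21325 CPM), Clu, the secreted chaperone clusterin (0.85, 203 to 74229 CPM), Psma2, a proteasome subunit (0.81, 2.88 to 1087 CPM), and Rheb, the small GTPase that activates mTORC1 (0.79, 2.66 to 836 CPM). The median rho of the 568 genes was 0.22, and the totals of the cells went with Fn1 at 0.86, Serpine2 at 0.62, Clu at 0.69, Psma2 at 0.63, Rheb at 0.76 and the summed members at 0.75. The part of depth in these values was not tested.

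Scx, whose reporter marked the cells, had 3 counts over the knockout cells and 2074 over the WT cells, 65.3% of them in WT cell 4, and reached 10 counts in 3 of the 12 cells.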
